A study of Homo sapiens with 6 samples.

Results

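The H/ACA box small nucleolar RNA genes held 256 of the 34781 USP39 binding sites in the list, 0.736% of it. A site was taken as a member when its central base lay within the span of a RefSeq gene whose symbol is SNORA followed by a digit. There are 182 such genes, and 97 of them had at least 1 site (53.3%, 95% Wilson interval 46.1% to 60.4%, which covers counting error only). By the same count of central bases within a gene's span, 20.6% of all 1199 snoRNA genes had a site. These include the H/ACA and C/D box genes, so 20.6% is not a separate background. The share was 23.1% of 20056 protein-coding genes and 9.87% of all 59716 RefSeq genes with a position. Among the other guide RNA classes it was 41.2% of C/D box genes and 89.7% of small Cajal body RNA genes. USP39 belongs to the tri-snRNP of U4, U6 and U5, one of the building blocks of the spliceosome. The sites come from iCLIP2 in wild-type HEK293T cells, a line established from human embryonic kidney: the cells were irradiated with UV light of 254 nm, USP39 was precipitated with an anti-USP39 antibody, and a low and a high membrane region gave 2 groups of 3 libraries. What was deposited and used here is 1 merged list of sites of 5 nt, each with a position and a strand and no height, so no value belongs to a library, the read depth is unknown, and no replicate error can be given. Libraries made without UV irradiation were not analysed here and RNA abundance was not measured, so none of the counts below is corrected for background or for how much of each RNA the cells contain. For the same reason the cell line was not checked against marker genes.

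H/ACA box snoRNAs guide pseudouridylation, the conversion of chosen uridines of ribosomal and other RNAs by the enzyme dyskerin. Each folds into a pair of hairpins: the 5′ hairpin is followed by a single-stranded hinge with the H box (ANANNA), and the 3′ hairpin by a short tail with the ACA box. Nearly all are cut out of introns of host genes, and the core proteins of the particle protect the ends of the RNA that remains. Once the ends are trimmed, the RNA acts in the nucleolus.

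The RefSeq sequence tables used here hold no entry for an H/ACA box gene itself, but microRNA hairpins and gene start regions (build GRCh38.p14) overlap 7 of them in part. These stretches are shown because they give the letters at and around sites on either side of the midpoint and at the 5′ end. They are printed 5′ to 3′ on the strand of the sites, with the bases covered by a site in capitals. Position 1 is the first base of the annotated snoRNA gene. The stretch of SNORA57 is the reverse complement of the start region of C11orf98, a gene on the other strand, and that of SNORA7A comes from the RPL32 entry.
SNORA81, chr3:186786672-186786777, through the MIR1248 hairpin: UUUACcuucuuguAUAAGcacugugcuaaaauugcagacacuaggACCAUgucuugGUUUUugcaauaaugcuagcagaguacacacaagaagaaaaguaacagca
SNORA2C, chr12:48654444-48654530, through the MIR1291 hairpin: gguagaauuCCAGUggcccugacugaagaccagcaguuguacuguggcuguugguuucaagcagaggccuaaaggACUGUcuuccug
SNORA84, chr9:92292461-92292547, through the MIR3651 hairpin: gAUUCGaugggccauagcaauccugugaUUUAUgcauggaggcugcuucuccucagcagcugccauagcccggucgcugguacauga
SNORA57, chr11:62665412-62665460: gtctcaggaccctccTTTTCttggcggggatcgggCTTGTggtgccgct
SNORA7A, chr3:12840441-12840470: gagtgggtgaggtgacCCTTGacctcctgg
SNORA36A, chrX:154768596-154768656, through the MIR664B hairpin: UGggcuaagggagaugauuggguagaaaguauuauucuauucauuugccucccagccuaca
SNORA36B, chr1:220200546-220200619, through the MIR664A hairpin: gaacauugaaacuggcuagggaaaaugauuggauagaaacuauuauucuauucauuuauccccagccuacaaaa

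The first 5 of these stretches contain 11 sites in full. All 11 include at least 1 U (or T), the central base is U or T in 8, and U or T makes up 27 of their 55 bases (49.1%), against 97 of the 359 bases of the 5 stretches (27.0%). These 11 sites were chosen only because a table happened to cover them, and the figures describe them alone. In SNORA84 the last ACA ends 3 nt before the 3′ end of the gene, the usual place of the ACA box, and the same holds for SNORA36B. The match to ANANNA nearest the middle of SNORA84 spans positions 60 to 65, and its sites centred on 50 and 77 lie on either side of it. In SNORA2C the match spans 59 to 64 and the sites are centred on 66 and 84, after it. The site centred on 66 also covers the last base of the match. Position 66 counts in the 5′ part of the gene by the midpoint used below. In SNORA81 the match nearest the middle spans 85 to 90, with sites at 12, 44 and 55 before it and at 132 and 137 after it. ANANNA, searched on the strand of the RNA only and with overlapping matches allowed, occurs in 57.7% of the 1562 miRNA hairpins of the table, and the stretch of SNORA81 alone has 8 matches, so a match does not by itself mark an H box. The printed stretch of SNORA36A runs from position 69 to 129 of 132, and the site centred on position 68 covers its first 2 bases.

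The 256 sites were spread over 97 of the 182 genes. Of the 97 genes with a site, 20 had 1, 32 had 2, 18 had 3, 18 had 4, 8 had 5 and 1 had 6. SNORA63, known earlier as E3 and carried by an intron-containing translation factor gene, EIF4A2, had the 6 sites; it lies at chr3:186787299-186787433 and its sites were centred on positions 11, 69, 74, 80, 96 and 102 of 135 nt. The 8 genes with 5 sites were SNORA12, SNORA18, SNORA19, SNORA46, SNORA53, SNORA62, SNORA79 and SNORA81. They differed in where the sites lay. All 5 sites of SNORA19 (chr10:119060011-119060138) fell between positions 23 and 68, while those of SNORA79 (chr14:81202695-81202834) fell between 60 and 104. SNORA53 (chr12:98599635-98599884), at 250 nt the longest of the 182 genes, had its sites between 86 and 215. SNORA46 (chr16:58548499-58548633), a guide for 18S rRNA, had sites spaced along most of the RNA, at 11, 30, 47, 79 and 95. SNORA62 (chr3:39411054-39411207), known earlier as E2, had sites at 1, 37, 72, 80 and 89. Among the genes with 4 sites, SNORA6 (chr3:39408391-39408539), a guide for 28S rRNA within RPSA, had them at 33, 49, 73 and 86. SNORA50C (chr17:64146339-64146471), 1 of the 10 genes without a host, had them at 10, 27, 32 and 67. Gene length was close in genes with and without a site, with medians of 134 and 135 nt.

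**Figure D1:**
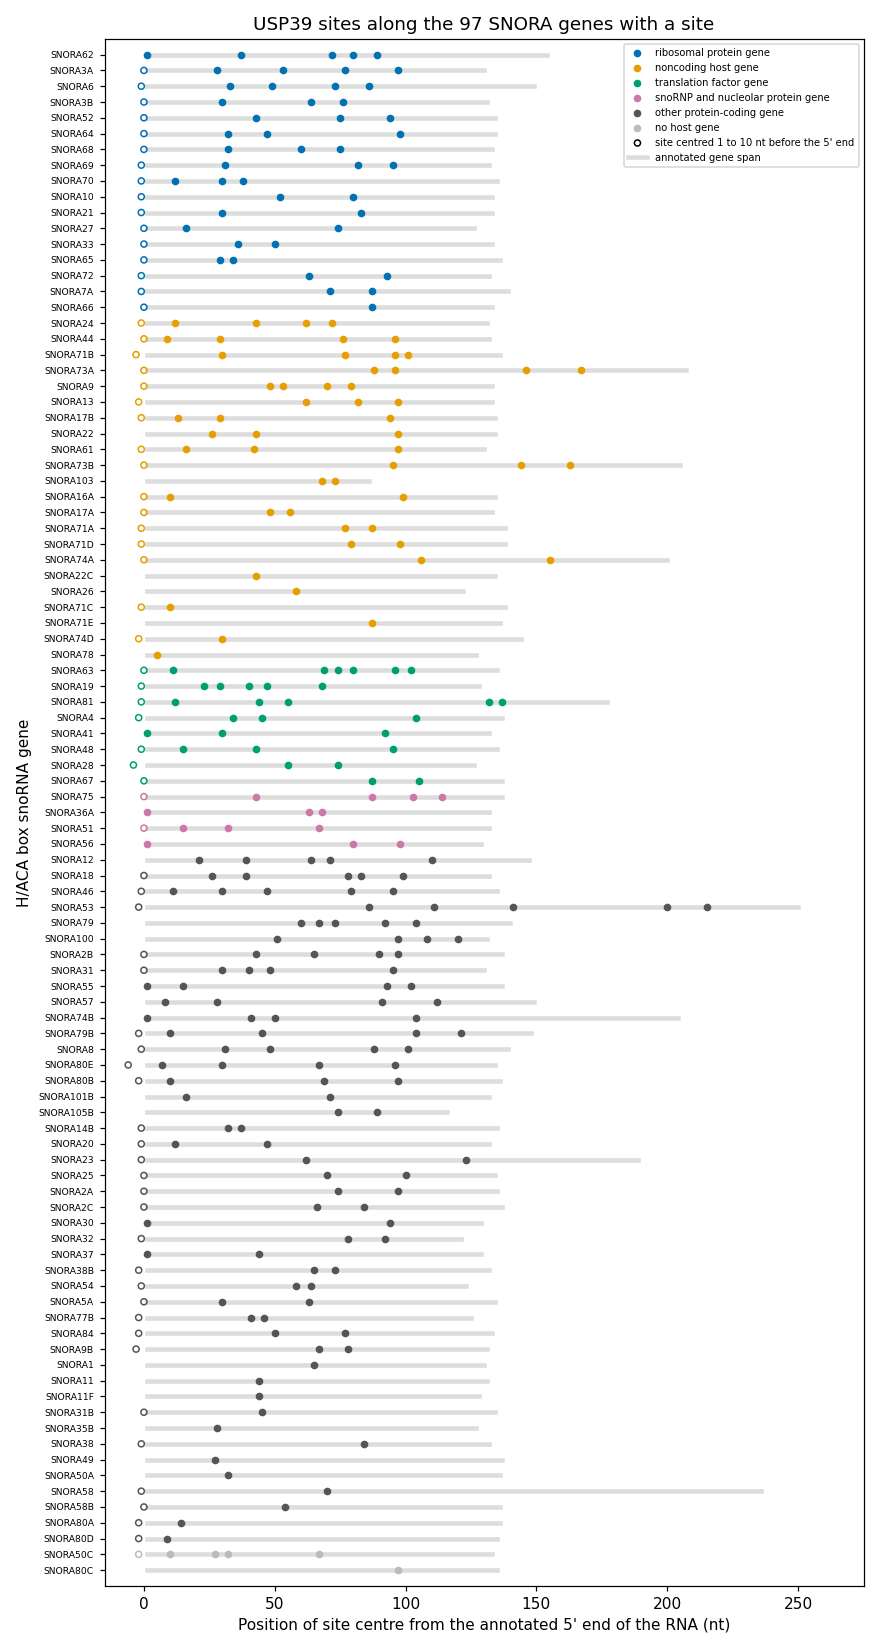
Each row is 1 of the 97 H/ACA box snoRNA genes with a site; the grey bar is the annotated span, filled points are member sites by the position of their centre from the 5′ end (nt), open points are sites centred 1 to 10 nt before the 5′ end, and colour gives the class of the host gene. Open points line up at the 5′ end of 70 of the 97 genes, and no filled point lies in the last 11 nt of a gene.

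A site sat right at the 5′ end of most of the RNAs that had a member site, although the rule counts only the few whose centre falls inside. In 77 of the 182 genes (42.3%, Wilson interval 35.4% to 49.6%) a site was centred within the 10 nt before the annotated 5′ end, 1 site in each gene. In 72 genes the distance was 1 to 3 nt: 30 at 1 nt, 28 at 2 nt and 14 at 3 nt. The other 5 were SNORA9B and SNORA71B at 4 nt, SNORA28 at 5 nt, and SNORA80E and SNORA63D at 7 nt. A further 8 genes, SNORA30, SNORA36A, SNORA37, SNORA41, SNORA55, SNORA56, SNORA62 and SNORA74B, had a site centred on position 1 itself. No gene had both, so 85 genes carried a site at the 5′ end in one form or the other. In the printed sequences these are the first capitals of SNORA81, SNORA2C and SNORA7A.

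The 3′ end showed no such site. Within the 10 nt after the annotated 3′ end there was 1 site in all 182 genes, 3 nt past the end of SNORA70. Of the 97 genes with a member site, 70 also had one just before the 5′ end (72.2%), 8 had position 1, and 19 had neither. Among the 85 genes without a member site, 7 had one there: SNORA5C, SNORA7B, SNORA21B, SNORA36B, SNORA40, SNORA63D and SNORA63E. Counted with these, 104 genes (57.1%) had a site in or at the start of the RNA. An edge site was present in 9 of the 20 genes with a single member site and in 34 of the 45 with 3 or more. In iCLIP the crosslinked base is read from the point where reverse transcription stopped, as the base before the end of the cDNA. How the authors treated cDNAs that run to the very end of an RNA is not given in the sources used here, and its part in these sites was not tested.

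**Figure D2:**
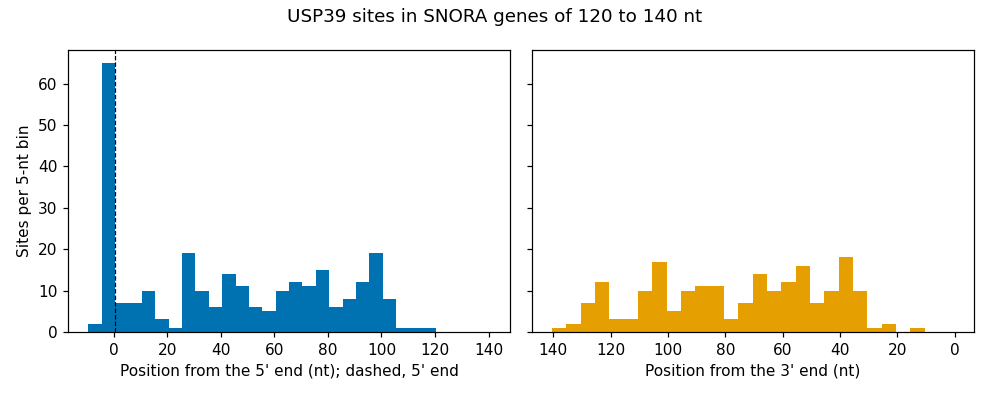
Sites per 5-nt bin in H/ACA box genes of 120 to 140 nt, by position of the centre from the 5′ end (left, sites before the end included, dashed line at the 5′ end) and from the 3′ end (right). The tallest bin lies directly before the 5′ end, and the last 30 nt of these RNAs hold 4 sites.

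Inside the RNA, sites lay on both sides of the midpoint of the gene. No full sequence was at hand to place the H box in each gene, so the midpoint of the gene stands in for the hinge. The 5′ part held 140 sites and the 3′ part 116 (54.7% in the 5′ part). In 56 of the 97 genes both parts had a site, in 26 only the 5′ part and in 15 only the 3′ part. Of the 45 genes with 3 or more sites, 43 had sites in both. Per gene, 47 genes had more sites in the 5′ part, 28 had more in the 3′ part and 22 had equal numbers. With the sites just before the 5′ end added, 65.2% lay on the 5′ side, an alternative added after seeing the data.

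Along the 139 genes of 120 to 140 nt, 81 of which had a site, the 203 sites were unevenly spaced. Positions 21 to 30 held 20 sites and 41 to 50 held 25, both in the 5′ part. Positions 51 to 60 held 11, then 61 to 70 held 22 and 71 to 80 held 26, around and just after the middle of the RNA. Positions 81 to 90 held 14, and 91 to 100 held 31 sites in 31 genes, the most of these fixed windows; of all windows of 10 nt, 92 to 101 held the most, 33. Beyond that the count dropped to 9 in positions 101 to 110, 2 in 111 to 120 and 0 in 121 to 140. Counted from the 3′ end, 28 sites lay at 31 to 40 nt, 3 at 21 to 30 nt, 1 at 11 to 20 nt and 0 at 1 to 10 nt.

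The same position recurred in several genes, both of different families and of the same one. The counts below include copies: SNORA2A with SNORA2B and SNORA80B with SNORA80C at position 97, and SNORA22 with SNORA22C at 43. Over genes of any length, position 30 was the centre of a site in 10 genes, among them SNORA21, SNORA41, SNORA46, SNORA70 and SNORA80E. Position 97 was the centre of a site in 9, among them SNORA13, SNORA61, SNORA2A, SNORA2B and SNORA80B. Position 43 was shared by 7, among them SNORA24, SNORA48, SNORA52 and SNORA75. Neighbouring sites in a gene lay a median of 19 nt apart over 159 pairs, from 5 nt, where sites of this width abut, to 93 nt. There were 11 abutting pairs and 33 pairs within 10 nt.

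Sites near the 3′ end were rare. Of the 256 sites 3 were centred in the last 20 nt. A cDNA that stops close to the 3′ end of a trimmed RNA is short. Which read lengths were kept is not given in the sources used here, and the part of such a limit in this count was not tested. SNORA100 (chr1:244854087-244854217), within HNRNPU, a gene for an abundant nuclear RNA-binding protein, had sites at 51, 97, 108 and 120. The last of them lay 12 nt from the 3′ end, the closest to a 3′ end of all 256 sites. HNRNPU had 91 sites outside small RNA genes, among them sites 52, 63 and 73 nt before the 5′ end of SNORA100. Sites of the snoRNA and of the host transcript cannot be told apart here. SNORA103 (chr1:173866205-173866290), within GAS5, a noncoding host gene, had sites at 68 and 73; its annotated length of 86 nt is the shortest of the 182.

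By guide target, sites were present on snoRNAs for every ribosomal RNA class examined. The classes are background knowledge and cover 47 well-known genes, which biases them to long-studied RNAs. Of 23 genes that guide 18S rRNA, 19 had a site (82.6%, Wilson interval 62.9% to 93.0%), with 52 sites in all. Those without were SNORA5B, SNORA5C, SNORA14A and SNORA36B, each of which has a sister copy in the class that did have one. Of 18 genes that guide 28S rRNA, 17 had a site, with 45 sites in all, and the exception was SNORA7B, a copy of SNORA7A. The 2 genes for 5.8S rRNA, SNORA69 and SNORA72, had 3 and 2 sites. SNORA10 and SNORA31, which guide both 18S and 28S rRNA, had 2 and 4. In the 135 genes left unassigned, 55 had a site (40.7%). They include all genes numbered above SNORA85, of which 4 of 34 had a site, a split made after seeing the data. The part of this split in the shares by target was not tested.

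SNORA73A and SNORA73B, also called U17, act in the cleavage of the ribosomal RNA precursor rather than as guides, and they had 4 and 3 sites. SNORA73A (chr1:28507365-28507571) had sites at 88, 96, 146 and 167 of 207 nt. SNORA73B (chr1:28508558-28508762) had sites at 95, 144 and 163 of 205 nt. Both had a site 1 nt before the 5′ end, and neither had a member site before position 88. SNORA13 (chr5:112161485-112161617), which guides the hypermodified uridine of 18S rRNA, had sites at 62, 82 and 97. SNORA24 (chr4:118279190-118279320), another 18S guide, had sites at 12, 43, 62 and 72, and SNORA44 (chr1:28580381-28580512) at 9, 29, 76 and 96. The share of sites in the 5′ part was 53.8% for the 18S guides and 55.6% for the 28S guides, close to that of all 256.

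The share of genes with a site differed widely by host gene. Of the 182 snoRNA genes 172 lie inside a longer gene, either protein-coding, a long noncoding RNA gene or a pseudogene. Exons were not in the tables, so intronic position was not checked. In ribosomal protein genes 17 of 18 snoRNA genes had a site (94.4%, Wilson interval 74.2% to 99.0%), and the exception was SNORA21B in RPL23. In translation factor genes it was 8 of 9, in genes of snoRNP and nucleolar proteins 4 of 4, and in noncoding hosts 22 of 36 (61.1%, interval 44.9% to 75.2%). In other protein-coding genes it was 44 of 105 (41.9%, interval 32.9% to 51.5%), and without a host 2 of 10. The sites just before the 5′ end were found in 17 of the 18 snoRNA genes in ribosomal protein hosts, in 19 of 36 in noncoding hosts and in 31 of 105 in other protein-coding hosts. How strongly each host is transcribed was not measured, and its part in these shares was not tested. The host classes also differ in the numbers of their snoRNA genes, a split made after seeing the data. Most genes numbered above SNORA85, of which 4 of 34 had a site, lie in other protein-coding genes. The ribosomal protein genes hold none of them. The part of this split in the shares by host was not tested.

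**Figure D3:**
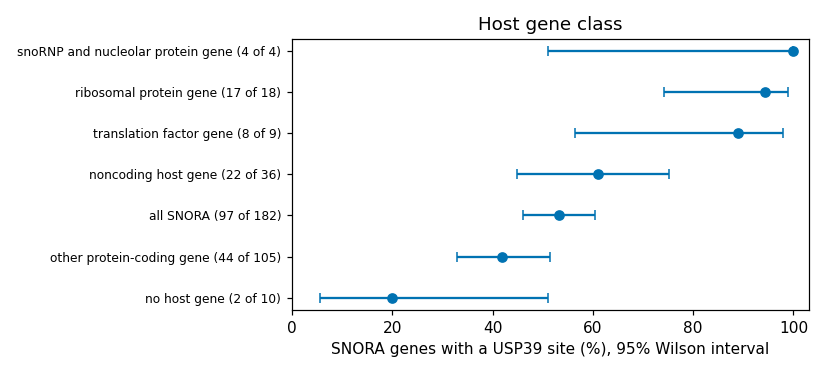
Share of H/ACA box snoRNA genes with a USP39 site (%), by class of the host gene, with the number of genes in brackets and 95% Wilson intervals as bars. Ribosomal protein hosts stand at 94.4%, other protein-coding hosts at 41.9%; genes without a host had a site in 2 of 10.

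Sites in the snoRNA and in the rest of the host did not always go together. Of 138 host genes, 62 had sites in an H/ACA box gene and elsewhere outside small RNA genes, 10 only in the snoRNA, 22 only elsewhere and 44 neither. Sites just outside a snoRNA gene, such as those before the 5′ end, count as elsewhere here. With sites up to 10 nt from the end of a snoRNA gene left out, an alternative added after seeing the data, the numbers were 60, 12, 21 and 45. All 14 ribosomal protein hosts and all 5 translation factor hosts had both by either count. ATP6V0E1, a gene for a proton pump subunit, had 0 sites outside its snoRNA, SNORA74B (chr5:173020726-173020929), which had 4. KANSL2, a subunit of a histone acetyltransferase complex, had 8 sites in its 3 snoRNAs and 2 outside small RNA genes, and both of those lay within 10 nt of a snoRNA gene, which left 0 in the rest of the host. At the other end, CCT6A, a chaperonin subunit gene, had 21 sites elsewhere and 0 in SNORA15 and SNORA22B. SNORA22 in CCT6P1 and SNORA22C in CCT6P3, of the same family as SNORA22B, had 3 and 1, and near-identical copies can share reads. SRCAP, a chromatin remodeller gene, had 56 elsewhere and 2 in SNORA30. By length SNORA30 was still the denser, with 15.5 sites per kb against 1.33 other sites per kb of the host.

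Several hosts carry 3 or more snoRNAs with sites. EIF4A2, a helicase of translation initiation, had 14 sites in SNORA63, SNORA81 and SNORA4, and 0 in SNORA63B. TAF1D, a subunit of an RNA polymerase I initiation factor, also had 14, with 5 in SNORA18, 4 in SNORA8, 2 each in SNORA25 and SNORA32, 1 in SNORA1 and 0 in SNORA40. SNHG12, a noncoding host, had 9 in SNORA44, SNORA61 and SNORA16A. SNHG17, another noncoding host, had 9 over SNORA71A, SNORA71B, SNORA71C and SNORA71D, from 1 in SNORA71C to 4 in SNORA71B. DKC1, which encodes dyskerin itself, holds SNORA36A and SNORA56 with 3 sites each, and each of them had a site on position 1. NCL, the gene for nucleolin, holds SNORA75 (chr2:231455800-231455936) with 4.

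The strand of the sites followed the host. In each of the 97 genes all sites lay on 1 strand. The host strand could be read from the start-region table for 78 of them, and it was the strand of the sites in 77. The exception was SNORA11F within NUDT13, whose single site, at position 44, lay on the other strand. SNORA11 in MAGED2 also had a single site at position 44. Where a snoRNA lay within several genes, the strand of the sites was among the criteria for choosing its host, which can raise this count.

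Among genes with the same number in their symbol, called copies throughout, member sites were often limited to some genes. The sequences of these genes were not compared. There are 40 families whose symbols differ only in a suffix: 22 had a member site in exactly 1 gene, 10 in all their genes and 3 in none. With the sites just before the 5′ end counted too, an alternative added after seeing the data, this was 18, 12 and 2. SNORA70 (chrX:154400281-154400415) in RPL10 had 3 sites and the other 9 genes of that name had 0. SNORA63 had 6 member sites and the other 4 had 0, although SNORA63D and SNORA63E had a site just before the 5′ end. SNORA11 had a site in 2 of 7 genes. The families SNORA71 and SNORA80 had sites in all 5 of their genes, with 10 sites each. Near-identical copies can share reads, and how the authors treated reads that map to several copies is not given in the sources used here, so the number of sites in any 1 copy is uncertain.

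Some copies with sites had them at like positions. Of 37 pairs of genes within a family that both had a site, 20 had sites centred within 3 nt of each other from the 5′ end. Most of the 37 pairs come from the families SNORA71 and SNORA80. Pairs of genes from different families were not counted, so it is not known how many would match to within 3 nt. SNORA80B and SNORA80E had 3 such sites, at 10, 69 and 97 in the first and at 7, 67 and 96 in the second, and SNORA80C had its single site at 97. SNORA2A and SNORA2B shared position 97, and SNORA79 and SNORA79B shared 104. SNORA3A and SNORA3B, both in RPL27A, had sites at 28 and 30 and at 77 and 76. SNORA17A and SNORA17B had none within 3 nt, with sites at 48 and 56 in one and at 13, 29 and 94 in the other. Of other genes with copies, SNORA9 (chr7:44985378-44985510) in SNHG15 had sites at 48, 53, 70 and 79. SNORA22 (chr7:65755526-65755659) in CCT6P1 had sites at 26, 43 and 97.

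The genes numbered above SNORA85 rarely had a site. This split was chosen after its values were seen. Of 34 such genes 4 had one (11.8%, interval 4.67% to 26.6%), namely SNORA100, SNORA101B, SNORA103 and SNORA105B, against 93 of 148 genes with lower numbers (62.8%, interval 54.8% to 70.2%).

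Values for other guide RNAs are given side by side. A site was present in 53.3% of H/ACA box genes, in 41.2% of C/D box genes (interval 36.2% to 46.3%) and in 26 of 29 small Cajal body RNA genes (89.7%, interval 73.6% to 96.4%). Genes with a site had a mean of 2.64 sites in the H/ACA box class and 2.66 in the C/D box class (SNORD, 396 sites in 149 of 362 genes), whose RNAs are shorter, with a median of 81 nt. The 3′ part held 45.3% of the H/ACA box sites and 15.2% of the C/D box sites. In small Cajal body RNA genes (SCARNA), many of which share the H/ACA fold, 54.3% of 92 sites lay in the 3′ part. Of 10 equal parts along the RNA, part 8 held 16.4% of the sites in H/ACA box genes, 1.52% in C/D box genes and 13.0% in small Cajal body RNA genes. Both measures scale with gene length, with a median of 134 nt for H/ACA box genes and 81 nt for C/D box genes. The same part therefore lies at unlike distances in nt from the 3′ end, and shares at equal distances were not compared. A site 1 to 10 nt before the 5′ end was present in 42.3% of H/ACA box genes, 19.3% of C/D box genes (interval 15.6% to 23.7%) and 48.3% of small Cajal body RNA genes (interval 31.4% to 65.6%). Among genes with a member site the shares were 72.2%, 44.3% and 53.8%. Sites centred on position 1 were found in 24 C/D box genes and 3 small Cajal body RNA genes. These differences between classes were not tested, since 1 merged list gives no samples to compare.

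**Figure D4:**
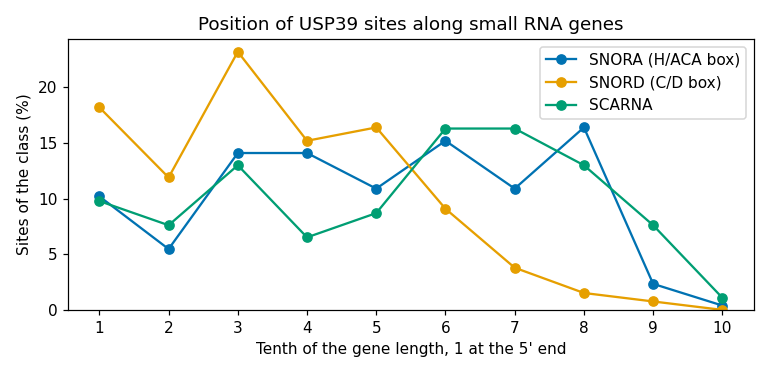
Share of the sites of each class (%) in each of 10 equal parts of the gene length, with 1 at the 5′ end, for H/ACA box (256 sites), C/D box (396 sites) and small Cajal body RNA genes (92 sites). The curve of H/ACA box genes stays between 5.47% and 16.4% up to part 8 and is at 2.34% and 0.391% in the last 2.

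Around the genes the list was sparser. Within the 182 genes there were 10.0 sites per kb, and in flanks of 200 nt there were 2.67 per kb, with other small RNA genes left out of both sites and length, a ratio of 3.74 (interval 3.09 to 4.54, counting error only). The sites just before the 5′ end count as flank sites here. Without the 10 nt next to each end, an alternative added after seeing the data, the flank density was 1.71 per kb and the ratio 5.84.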

How the data were processed

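USP39-bound RNA was measured by iCLIP2 in 6 libraries. Build GRCh38.p12 and, in no stated role, UMI-tools 1.1.2, bedtools 2.29.2, SAMtools 1.10, STAR 2.7.3a and FastQC 0.11.9 are named per the submitters' processing notes; which program called the sites, with which filters and from which libraries, is not given in the sources used here. Every row of the deposited list has a score of 0, so sites carry a position and a strand only. Depth is unknown, and per-library comparisons, the low against the high membrane region included, could not be made.

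Sites were assigned by central base to spans of the RefSeq gene table (GRCh38.p14), which gives no strand or exons; positions are counted 5′ to 3′ along the strand the site lies on. Coordinates start at 1. The H box division planned for genes with sequence could be applied only to the partial stretches, so the midpoint was used. A host is a gene whose span holds the snoRNA. Where several did, genes named SNHG or GAS5 came first, then genes not on the opposite strand, then those without a LOC symbol, protein-coding genes and the shortest. Guide targets were written by hand from background knowledge; 1 entry (SNORA17B) was removed and 1 renamed by its synonym after the symbols were compared. The genes, lists and rules were chosen with earlier results of these data known. Named genes are the 20 with the most sites (ties in order of symbol), copies with at least 3 sites, SNORA73A and SNORA73B, hosts with 3 or more such snoRNAs and genes with a site in the last 20 nt; 1 gene that the rule names is not reported here, and others were chosen after their values were seen.

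Wilson intervals (95%) used scipy 1.17.1, with Python 3.11.15, numpy 2.4.6, pandas 2.3.3 and matplotlib 3.10.9; the interval of a density ratio comes from an exact binomial interval. Position assignment was tested on simulated data: of 430 sites planted in the 182 genes, 100% were recovered.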

Additional observations from a re-analysis of the deposited data

How the results depend on the processing

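Of 33 alternatives 23 left the value within its interval or, for counts, within 1.5 times. With sites within 50 nt joined there were 121 sites, 61.2% of them in the 5′ part. Without families of several copies there were 111 sites in 37 genes. Counting any base of overlap, 63.1% of sites lay in the 5′ part; with the sites just before the 5′ end added this was 65.2%, and 62.7% of genes with unequal numbers had more sites there. With at least 3 sites required, 45 genes remained. The density ratio to the flanks was 5.46 with flanks of 500 nt and 5.84 without the 10 nt next to each end; windows of 3 and 20 nt gave 72 and 78 genes with a site before the 5′ end. Both windows, the addition of edge sites, the trimmed flanks and the recounts of hosts and families were chosen after seeing the data. The restriction to the annotated strand and a stricter site score were not run, since the tables give no gene strand and the score is constant. No paired analysis was possible because the merged list has no values per library. The unknown depth means that a gene without a site is not shown to be unbound.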
